A study of Homo sapiens with 15 samples.

Results

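NRF2 antioxidant and glutathione synthesis genes were followed by RNA sequencing in 5 lines of OVCAR4 cells, a widely used model of high-grade serous carcinoma of the ovary. The 9 genes are GCLC, GCLM, GSR, NQO1, HMOX1, TXNRD1, SRXN1, AKR1C1 and NFE2L2. They were chosen by symbol, with earlier results of these data known, and are 9 of the 16604 genes in the deposited table. Ovcar4Parental is the parental line, sensitive to carboplatin and cisplatin. Ov4Cis is the cisplatin resistant line and Ov4Carbo the carboplatin resistant one, each obtained from the parental cells in rising concentrations of the drug. Selection ended at an IC50, a measure of the drug concentration that cells withstand, of 2 to 10 times that at the start. Ov4Carbo4 and Ov4Carbo7 each grew from a single Ov4Carbo cell, so each is 1 clone, and the labels give them as carboplatin resistant too. All 5 lines grew in the same serum-containing medium, and each has 3 biological replicates, numbered 1 to 3, so 15 samples in all. The labels do not say whether drug was present when RNA was taken. Both platinum drugs act by crosslinking DNA. The comparison asked here is whether the genes of this pathway differed between sensitive and resistant cells, between the drugs used for selection, and between sister clones. Each drug has a single selected population, so drug and line cannot be told apart.

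NRF2, the product of NFE2L2, is a transcription factor that KEAP1 and the CUL3 ubiquitin ligase hold at a low level in unstressed cells. Oxidants and electrophiles stop its breakdown, and NRF2 then pairs with small MAF proteins on antioxidant response elements and raises transcription of antioxidant genes. Its targets make and recycle glutathione, keep thioredoxin reduced, break down heme and detoxify carbonyls and quinones. Glutathione can bind platinum drugs, which is why this pathway is studied in platinum resistance. Much of NRF2's control is at the level of protein, which RNA does not measure.

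The values are the authors' log2 RPKM, which is a read count scaled to gene length and library size, on a log2 scale, so 1 unit is a 2-fold difference. The median of every sample was 2.77, so a difference in total RNA between lines is not measurable, and the depth per sample is unknown. PAX8, a marker of Müllerian epithelium, averaged 5.85 to 6.74 log2 RPKM over the 5 lines, and SOX17 averaged 6.65 to 7.76. WT1, another serous marker, was near the bottom of the scale, with line means from -5.07 to -1.52. The 16 epithelial markers, all in the table, summed to 1050 to 1245 RPKM in Ovcar4Parental, 638 to 725 in Ov4Carbo, 656 to 710 in Ov4Carbo4, 465 to 470 in Ov4Carbo7 and 360 to 470 in Ov4Cis. By line mean, 15 of the 16 were above log2 RPKM 0 in Ovcar4Parental and in Ov4Carbo, 14 in each clone and 8 in Ov4Cis. KRT7 averaged 8.28 log2 RPKM in Ovcar4Parental and -0.57 in Ov4Cis, and CDH1 4.63 and -3.52. The part of the epithelial markers in the results was not tested. PTPRC, CD3E, CD68, PECAM1, CLDN5, DCN, PDGFRA and CALB2, defining markers of leukocytes, endothelium, fibroblasts and mesothelium, are not among the genes of the table. Of the other 10 markers in these lists CDH5, of endothelium, averaged 2.15 (Ov4Carbo) to 5.13 (Ov4Cis) log2 RPKM, and UPK3B, of mesothelium, 3.69 (Ov4Carbo4) to 6.27 (Ovcar4Parental). COL1A1, a fibroblast collagen, averaged 2.26 to 3.63, and COL1A2 1.39 in Ovcar4Parental and -4.41 to -2.85 in the resistant lines. Summed per sample, the 2 endothelial markers came to 4.20 to 40.4 RPKM, the 2 mesothelial to 12.7 to 93.1, the 4 fibroblast to 4.04 to 14.6 and the 2 leukocyte to 0.67 to 1.96, and their part in the results was not tested either. The Ov4Carbo replicates were the least alike, with root mean square distances of 0.64 to 0.74 log2 units per gene to the others of their line, against 0.33 to 0.52 in the other lines. The sample titles carry numbers in 2 series, which the labels do not call a batch. The first holds both clones and replicate 1 of Ov4Carbo, the second all other samples. Ov4Carbo7 against Ov4Carbo4 and Ov4Cis against Ovcar4Parental therefore lie within a series, while the other comparisons with a clone cross them. A term for the title series, used below, rests on 1 sample, Ov4Carbo replicate 1, set against replicates 2 and 3 of its line.

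Each of the 9 genes had its highest mean in the clone Ov4Carbo7, and 6 of them their lowest or next to lowest in the sister clone Ov4Carbo4. Against Ovcar4Parental all 9 rose in Ov4Carbo7, at an adjusted p under 0.05, and 0 fell. Over all genes, 22.2% rose and 20.4% fell by the same rule in that comparison. For 6 of the 9 the rise was also at least 1 log2 unit, a rule that 17% of all genes met in either direction. "Rose" and "fell" mean here an adjusted p under 0.05 from limma, with the Benjamini-Hochberg method over all 16604 genes. Each of the 9 differed among the 5 lines by limma's F-test, with adjusted p from 9.21e-06 for GSR to 0.0146 for SRXN1, but so did 76.9% of all genes. In bulk samples such as these, a higher level in every cell and a larger share of expressing cells cannot be told apart.

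**Figure D1:**
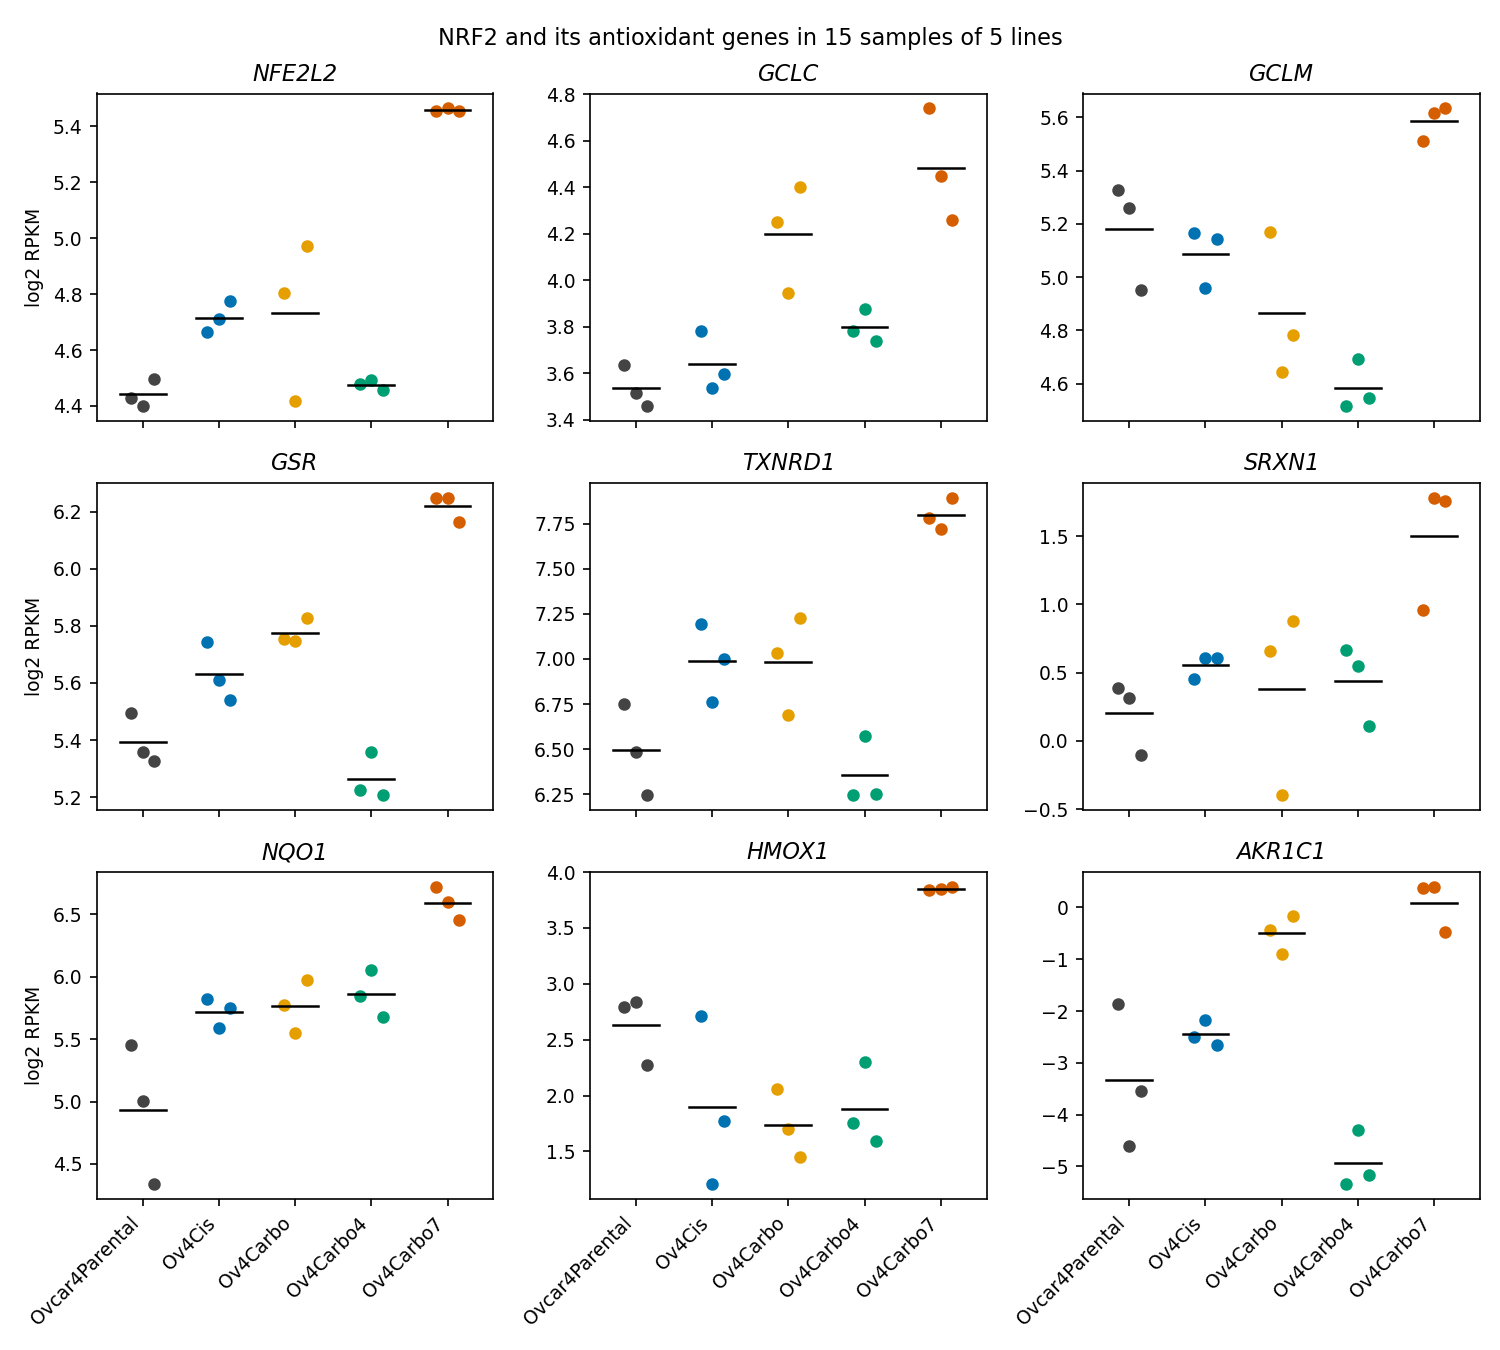
Each panel plots 1 gene in log2 RPKM (vertical axis, its own range in each panel) for 3 replicates of 5 lines, points being samples in the order of replicates 1 to 3 and black lines the means. In all 9 panels the Ov4Carbo7 mean is the highest, and in 7 of them, all but GCLC and AKR1C1, every Ov4Carbo7 value lies above every value of the other lines.

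NFE2L2 (ENSG00000116044, chromosome 2) encodes NRF2 itself. Its log2 RPKM was 4.43, 4.40 and 4.49 in Ovcar4Parental, 4.66, 4.71 and 4.77 in Ov4Cis, 4.80, 4.42 and 4.97 in Ov4Carbo, 4.48, 4.49 and 4.46 in Ov4Carbo4, and 5.46, 5.46 and 5.45 in Ov4Carbo7. The 3 Ov4Carbo7 values were nearly identical and lay above all others, while replicate 2 of Ov4Carbo was as low as the parental samples. In Ov4Carbo7 NFE2L2 rose 2.02-fold over Ovcar4Parental (log2 fold change 1.02, SE 0.12, limma adjusted p = 2.44e-05). It was also 0.98 log2 units higher than in Ov4Carbo4 (adjusted p = 2.41e-05). The differences of 0.27 for Ov4Cis, 0.29 for Ov4Carbo and 0.03 for Ov4Carbo4 from Ovcar4Parental did not pass (limma adjusted p = 0.0888, 0.0752 and 0.844). Without Ov4Carbo replicate 2 the Ov4Carbo difference was 0.45, with a limma adjusted p of 0.00194, and Ov4Carbo4 was 0.41 lower than Ov4Carbo (adjusted p = 0.00237, against 0.0982 with all samples). In the order of the means, Ov4Carbo7 stood apart from Ov4Carbo below it (0.73 log2 units, limma adjusted p = 5.29e-04), and none of the neighbouring differences among Ov4Carbo, Ov4Cis, Ov4Carbo4 and Ovcar4Parental passed.

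GCLC (ENSG00000001084, chromosome 6) is the catalytic subunit of glutamate-cysteine ligase, which carries out the rate-limiting step of glutathione synthesis. On the log2 RPKM scale it was at 3.64, 3.51 and 3.46 in Ovcar4Parental, 3.78, 3.54 and 3.60 in Ov4Cis, 4.25, 3.94 and 4.40 in Ov4Carbo, 3.78, 3.88 and 3.74 in Ov4Carbo4, and 4.74, 4.45 and 4.26 in Ov4Carbo7. Ov4Carbo and Ov4Carbo7 overlapped each other and lay above every sample of the other 3 lines. GCLC rose 1.58-fold in Ov4Carbo over Ovcar4Parental (log2 0.66, SE 0.14, limma adjusted p = 0.00353) and 1.93-fold in Ov4Carbo7 (log2 0.95, SE 0.14, adjusted p = 1.81e-04). The difference between these carboplatin lines, 0.28, did not pass (limma adjusted p = 0.133). In Ov4Carbo4 it was 0.40 lower than in Ov4Carbo (limma adjusted p = 0.0375), a call lost without any 1 of replicates 1 and 3 of Ov4Carbo or 1, 2 and 3 of Ov4Carbo4 (differences -0.44 to -0.30, adjusted p 0.0565 to 0.127) and with the title series term (-0.45, adjusted p = 0.121). In Ov4Cis it was 0.10 above Ovcar4Parental, with a 95% interval from -0.20 to 0.41.

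GCLM (ENSG00000023909, chromosome 1), the modifier subunit of the same ligase, followed another order. On the log2 RPKM scale it was at 5.33, 5.26 and 4.95 in Ovcar4Parental, 5.17, 4.96 and 5.14 in Ov4Cis, 5.17, 4.65 and 4.78 in Ov4Carbo, 4.52, 4.69 and 4.55 in Ov4Carbo4, and 5.51, 5.61 and 5.63 in Ov4Carbo7. The parental line came second here, below Ov4Carbo7, and Ov4Carbo4 was lowest. In Ov4Carbo4 GCLM fell by 0.59 log2 units from Ovcar4Parental (SE 0.14, limma adjusted p = 0.00486). With a term for the title series that difference was -1.05 (adjusted p = 0.00311). Its rise in Ov4Carbo7 was the smallest of the 9, at 1.33-fold (log2 0.41, SE 0.14, adjusted p = 0.0331). That call was lost without replicate 2 or 3 of Ovcar4Parental or any 1 replicate of Ov4Carbo7 (0.29 to 0.45, adjusted p 0.05 to 0.139). With the series term it became -0.047 (limma adjusted p = 0.884). That term rests on 1 sample, Ov4Carbo replicate 1 (5.17), set against replicates 2 and 3 of its line (4.65 and 4.78). Between the clones, within a series, the difference was larger: GCLM was 2.00-fold higher in Ov4Carbo7 than in Ov4Carbo4 (log2 1.00, SE 0.14, limma adjusted p = 7.98e-05). So in Ov4Carbo GCLC rose and GCLM was at -0.31 (adjusted p = 0.101), and in Ov4Carbo4 GCLM fell and GCLC was 0.26 above Ovcar4Parental (adjusted p = 0.163). The Ov4Carbo difference of GCLM was -0.47 without Ov4Carbo replicate 1 and -0.43 without parental replicate 3 (limma adjusted p = 0.0121 and 0.0487).

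The promoter of GCLM holds letters that match the core of an antioxidant response element, close to the start of transcription. The core searched was TGACNNNGC on both strands, in RefSeq windows (GRCh38.p14) from 250 bases before to 50 after each start. The GCLM stretch is shown because it is 1 of 2 members with a match, in capitals, from 150 bases before the start to 10 after:
GCLM, chr1:93909421-93909580, minus strand: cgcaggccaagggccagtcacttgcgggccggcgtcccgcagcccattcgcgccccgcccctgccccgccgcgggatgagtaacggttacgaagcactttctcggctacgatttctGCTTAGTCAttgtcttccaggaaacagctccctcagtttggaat
Read on the opposite strand the match is TGACTAAGC, and its first base on the printed strand lies at -34. RefSeq windows of 7 of the 9 members are counted here, 9 windows in all, and none of GSR or HMOX1 is among them. The core was in 3 of the 9 windows, of 2 genes, GCLM and TXNRD1, and in 13.3% of all 35116 promoter windows of 300 bases. The AP-1 motif TGANTCA, which can overlap it, was in 0 of the 9 and in 7.71% of all. A match is a stretch of letters and was not tested as a binding site, and elements outside the window were not searched.

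GSR (ENSG00000104687, chromosome 8), glutathione reductase, regenerates reduced glutathione with NADPH. Its log2 RPKM was 5.49, 5.36 and 5.33 in Ovcar4Parental, 5.74, 5.61 and 5.54 in Ov4Cis, 5.75, 5.75 and 5.83 in Ov4Carbo, 5.23, 5.36 and 5.21 in Ov4Carbo4, and 6.25, 6.25 and 6.16 in Ov4Carbo7. The replicates of GSR were tight, and only Ovcar4Parental and Ov4Carbo4 overlapped. GSR rose 1.77-fold in Ov4Carbo7 (log2 0.83, SE 0.087, limma adjusted p = 1.18e-05), 1.30-fold in Ov4Carbo (0.38, adjusted p = 0.00517) and 1.18-fold in Ov4Cis (0.24, adjusted p = 0.049). The Ov4Cis call was lost without any 1 of its replicates or without replicate 2 or 3 of Ovcar4Parental (0.18 to 0.28, adjusted p 0.052 to 0.169). The Ov4Carbo4 value was 0.13 below Ovcar4Parental (95% interval -0.32 to 0.06). The clones lay on opposite sides of the population they came from: Ov4Carbo4 was 0.51 lower than Ov4Carbo (limma adjusted p = 6.26e-04) and Ov4Carbo7 0.44 higher (adjusted p = 0.00193).

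TXNRD1 (ENSG00000198431, chromosome 12), cytosolic thioredoxin reductase, had the highest level of the 9 per length, with geometric means from 81.9 RPKM in Ov4Carbo4 to 223 RPKM in Ov4Carbo7. On the log2 RPKM scale it was at 6.75, 6.48 and 6.25 in Ovcar4Parental, 7.20, 6.76 and 7.0 in Ov4Cis, 7.03, 6.69 and 7.23 in Ov4Carbo, 6.25, 6.57 and 6.25 in Ov4Carbo4, and 7.78, 7.72 and 7.89 in Ov4Carbo7. Ov4Carbo7 was again above all, Ov4Cis and Ov4Carbo were in the middle, and Ovcar4Parental and Ov4Carbo4 overlapped at the bottom. TXNRD1 rose 2.47-fold in Ov4Carbo7 over Ovcar4Parental (log2 1.30, SE 0.17, limma adjusted p = 6.51e-05). The rises of 0.49 in Ov4Cis and 0.49 in Ov4Carbo passed narrowly (limma adjusted p = 0.0387 and 0.0432). Without any 1 of replicates 1 and 3 of Ov4Cis, or 2 and 3 of Ovcar4Parental, the Ov4Cis adjusted p was 0.0885 to 0.147. Without any 1 of replicates 1 and 3 of Ov4Carbo, or 2 and 3 of Ovcar4Parental, that of Ov4Carbo was 0.0788 to 0.165. Against Ov4Carbo, TXNRD1 fell by 0.63 in Ov4Carbo4 (adjusted p = 0.0111) and rose by 0.82 in Ov4Carbo7 (adjusted p = 0.0028), so the clones differed 2.72-fold (log2 1.44, limma adjusted p = 2.17e-05). Both comparisons with Ov4Carbo cross the title series, and with the series term they were -0.68 and 0.77 and did not pass (adjusted p = 0.0621 and 0.0523). For Ov4Carbo against Ovcar4Parental that term gives the same fit as leaving out Ov4Carbo replicate 1 (0.46, limma adjusted p = 0.0788), so it adds no further check. With the replicate block this rise did not pass (limma adjusted p = 0.059).

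Near both RefSeq start sites of TXNRD1 the same core was found. They are shown over the same 150 bases before and 10 after the start, with matches in capitals:
TXNRD1 window 1, chr12:104215629-104215788, plus strand: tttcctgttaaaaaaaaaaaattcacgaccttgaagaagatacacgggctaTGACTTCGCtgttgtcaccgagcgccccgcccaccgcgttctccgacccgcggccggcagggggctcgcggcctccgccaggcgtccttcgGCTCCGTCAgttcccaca
TXNRD1 window 2, chr12:104286882-104287041, plus strand: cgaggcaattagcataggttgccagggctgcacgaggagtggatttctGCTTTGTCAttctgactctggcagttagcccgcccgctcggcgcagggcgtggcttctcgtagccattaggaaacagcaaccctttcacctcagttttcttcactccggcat
Window 1 has TGACTTCGC at -99 on the gene's strand and TGACGGAGC, starting at -8, on the other. Window 2 has TGACAAAGC at -102 on the other strand. The gene-level values do not separate transcripts from these starts.

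SRXN1 (ENSG00000271303, chromosome 20), sulfiredoxin, repairs overoxidised peroxiredoxins. It was expressed far lower, with geometric means of 1.15 to 2.83 RPKM. Its log2 RPKM was 0.39, 0.32 and -0.10 in Ovcar4Parental, 0.45, 0.61 and 0.61 in Ov4Cis, 0.66, -0.40 and 0.88 in Ov4Carbo, 0.67, 0.55 and 0.11 in Ov4Carbo4, and 0.96, 1.78 and 1.76 in Ov4Carbo7. Ov4Carbo7 was above every other sample, although its replicate 1, at 0.96, came close to Ov4Carbo replicate 3, at 0.88. SRXN1 rose 2.46-fold in Ov4Carbo7 over Ovcar4Parental (log2 1.30, SE 0.31, limma adjusted p = 0.00486), and the differences of the other 3 resistant lines from Ovcar4Parental did not pass (0.18 to 0.35, adjusted p 0.41 to 0.693). With the title series term the Ov4Carbo7 difference was 0.88 (adjusted p = 0.264).

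NQO1 (ENSG00000181019, chromosome 16), a quinone reductase widely used as a readout of NRF2, rose in all 4 resistant lines in the fit over all samples, the 1 member to do so. On the log2 RPKM scale it was at 5.45, 5.0 and 4.34 in Ovcar4Parental, 5.82, 5.59 and 5.75 in Ov4Cis, 5.77, 5.55 and 5.97 in Ov4Carbo, 5.85, 6.05 and 5.68 in Ov4Carbo4, and 6.72, 6.60 and 6.45 in Ov4Carbo7. Every resistant sample was above every parental sample, and the parental replicates spread from 4.34 to 5.45. The rises over Ovcar4Parental were 1.73-fold in Ov4Cis (log2 0.79, SE 0.22, limma adjusted p = 0.0152), 1.78-fold in Ov4Carbo (0.83, adjusted p = 0.0133), 1.90-fold in Ov4Carbo4 (0.93, adjusted p = 0.00583) and 3.16-fold in Ov4Carbo7 (1.66, adjusted p = 8.63e-05). These share the 3 parental samples. Without parental replicate 3, the lowest, the log2 rise was 0.49 in Ov4Cis and 0.54 in Ov4Carbo and still passed. With only the lines compared in the fit the Ov4Cis and Ov4Carbo calls were lost (limma adjusted p = 0.0739 and 0.117), and with the title series term that of Ov4Carbo4 was (0.91, adjusted p = 0.128). The differences between Ov4Cis, Ov4Carbo and Ov4Carbo4, neighbours in the order of means, did not pass (limma adjusted p = 0.893 and 0.76). Ov4Carbo7 was 0.73 above Ov4Carbo4 (adjusted p = 0.0162), which became 0.64 without Ov4Carbo4 replicate 3 and 0.67 without Ov4Carbo7 replicate 1 (adjusted p = 0.0624 and 0.0555).

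HMOX1 (ENSG00000100292, chromosome 22), heme oxygenase 1, releases iron, carbon monoxide and biliverdin from heme and is repressed by BACH1 as well as raised by NRF2. On the log2 RPKM scale it was at 2.79, 2.84 and 2.28 in Ovcar4Parental, 2.71, 1.21 and 1.77 in Ov4Cis, 2.06, 1.70 and 1.45 in Ov4Carbo, 1.76, 2.30 and 1.59 in Ov4Carbo4, and 3.84, 3.84 and 3.87 in Ov4Carbo7. The Ov4Carbo7 values were nearly identical and 1 log2 unit above the highest parental one, and the other 3 resistant lines had lower means than Ovcar4Parental. HMOX1 rose 2.32-fold in Ov4Carbo7 over Ovcar4Parental (log2 1.22, SE 0.32, limma adjusted p = 0.00854), or 0.73 (adjusted p = 0.366) with the title series term. In Ov4Carbo it fell by 0.90 (adjusted p = 0.0463), a call lost without any 1 of replicates 2 and 3 of Ov4Carbo or 1 and 2 of Ovcar4Parental (-0.88 to -0.76, adjusted p 0.101 to 0.138). The differences of -0.74 in Ov4Cis and -0.75 in Ov4Carbo4 did not pass (limma adjusted p = 0.091 and 0.0809). Without Ov4Cis replicate 1, the highest of its line, the Ov4Cis difference was -1.14 (adjusted p = 0.00523). Against Ov4Carbo and Ov4Carbo4, HMOX1 in Ov4Carbo7 was 4.33-fold and 3.91-fold higher (limma adjusted p = 3.34e-04 and 2.55e-04).

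AKR1C1 (ENSG00000187134, chromosome 10), an aldo-keto reductase that reduces steroids and reactive carbonyls, had the widest range and the lowest level. Its geometric means ran from 0.033 RPKM in Ov4Carbo4 to 1.07 RPKM in Ov4Carbo7. Its log2 RPKM was -1.86, -4.60 and -3.55 in Ovcar4Parental, -2.50, -2.18 and -2.65 in Ov4Cis, -0.43, -0.89 and -0.16 in Ov4Carbo, -5.34, -4.29 and -5.18 in Ov4Carbo4, and 0.37, 0.40 and -0.48 in Ov4Carbo7. Ov4Carbo and Ov4Carbo7 overlapped and were above all other samples, Ov4Carbo4 was lowest, and the parental replicates spread from -4.60 to -1.86. AKR1C1 rose 7.19-fold in Ov4Carbo (log2 2.85, SE 0.54, limma adjusted p = 0.00177) and 10.8-fold in Ov4Carbo7 (3.43, adjusted p = 2.77e-04) over Ovcar4Parental. Parental replicate 1 was the highest of its line and replicate 2 the lowest: without the former the rises were 3.58 and 4.17 log2 units, and without the latter 2.21 and 2.80. The Ov4Cis difference, 0.89 (adjusted p = 0.225), was 1.63 (adjusted p = 0.0085) without parental replicate 1. The clones differed by 5.03 log2 units (adjusted p = 1.09e-05), and Ov4Carbo4 was 4.45 below Ov4Carbo (adjusted p = 6.11e-05). Ov4Carbo4 was 1.60 below Ovcar4Parental (adjusted p = 0.0328) although their values overlapped. That call was lost without any 1 of parental replicates 1 and 3 or Ov4Carbo4 replicates 1 and 3 (-1.70 to -0.86, adjusted p 0.0547 to 0.119) and with the title series term (-1.70, adjusted p = 0.237). At levels this low the size of a log2 fold change depends on how values near 0 RPKM are handled. On the log2(RPKM + 1) scale the difference of Ov4Carbo4 from Ovcar4Parental was -0.13 (limma adjusted p = 0.429). The rises over Ovcar4Parental on that scale were 0.61 in Ov4Carbo and 0.89 in Ov4Carbo7 (limma adjusted p = 0.00148 and 3.97e-05). The clones then differed by 1.01 (adjusted p = 8.29e-06).

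AKR1C1 also has a near-identical neighbour on chromosome 10, AKR1C2 (ENSG00000151632), so reads could be divided between them and the values of both are uncertain. Over the longest open reading frames in GENCODE v29, 953 of 972 bases, or 98.0%, are the same. The first 240 bases are shown with the 11 differing bases in capitals, to let the likeness be seen:
AKR1C1: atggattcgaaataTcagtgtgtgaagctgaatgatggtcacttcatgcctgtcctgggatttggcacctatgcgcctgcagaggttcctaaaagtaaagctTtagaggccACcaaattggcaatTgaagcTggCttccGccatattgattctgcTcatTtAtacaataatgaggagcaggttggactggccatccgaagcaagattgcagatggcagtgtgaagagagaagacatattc
AKR1C2: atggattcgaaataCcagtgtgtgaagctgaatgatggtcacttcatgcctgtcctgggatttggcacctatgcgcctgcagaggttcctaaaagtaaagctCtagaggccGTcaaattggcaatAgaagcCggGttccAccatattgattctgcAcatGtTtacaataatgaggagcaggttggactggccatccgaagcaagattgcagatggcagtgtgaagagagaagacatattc
AKR1C2 was at -4.82, -5.14 and -5.84 log2 RPKM in Ovcar4Parental, -3.55, -3.38 and -3.55 in Ov4Cis, -3.10, -1.70 and -1.38 in Ov4Carbo, -4.89, -5.21 and -5.67 in Ov4Carbo4, and -2.15, -1.57 and -3.70 in Ov4Carbo7. Like AKR1C1 it was high in Ov4Carbo and Ov4Carbo7 and low in Ov4Carbo4. With the RPKM of the pair summed, a comparison added after the values were seen, the log2 rise over Ovcar4Parental was 2.91 in Ov4Carbo (limma adjusted p = 4.6e-04) and 3.27 in Ov4Carbo7 (adjusted p = 1.06e-04). The summed difference of Ov4Carbo4 from Ovcar4Parental was -1.12 and no longer passed (adjusted p = 0.0681).

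**Figure D2:**
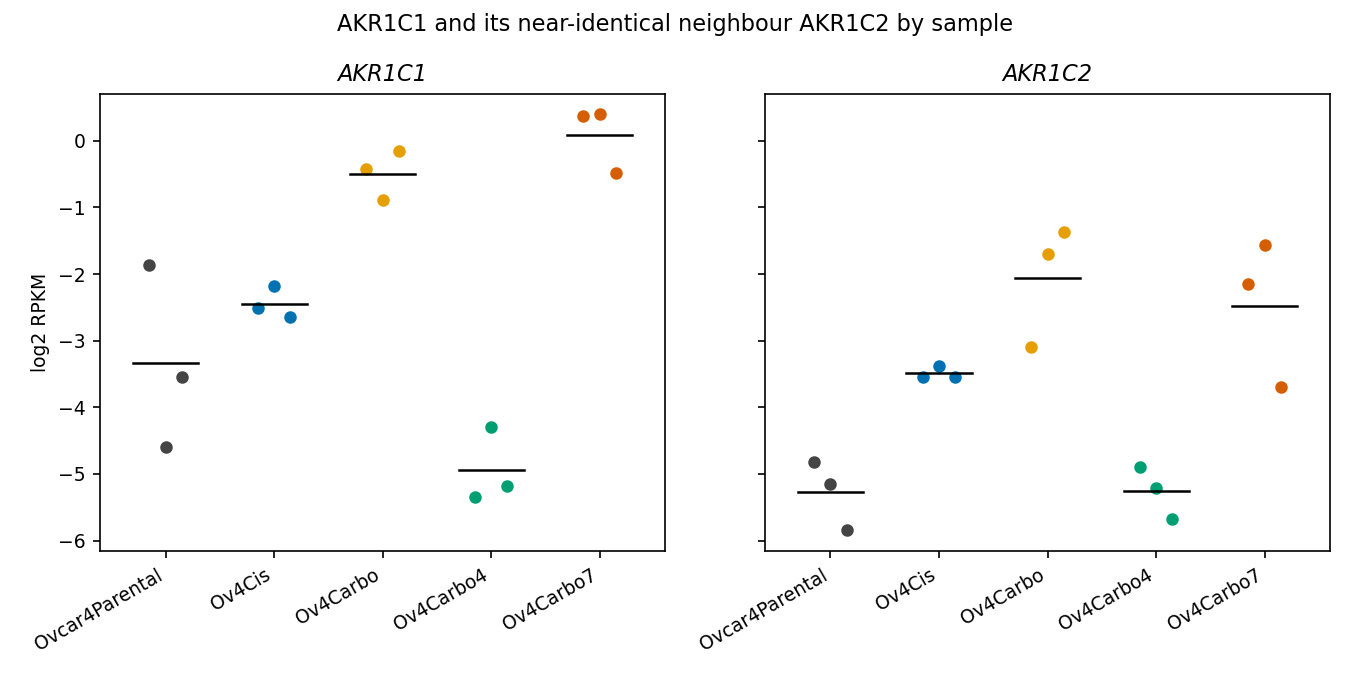
AKR1C1 (left) and AKR1C2 (right) in log2 RPKM (shared vertical axis) for 3 replicates of 5 lines, points being samples and black lines the means. In both panels Ov4Carbo and Ov4Carbo7 hold the highest means, -0.49 and 0.09 for AKR1C1, and the AKR1C2 values sit lower.

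Against Ovcar4Parental the 4 resistant lines thus fell into unequal counts. They share the parental samples, so the comparisons are not independent of each other. In Ov4Cis 3 of the 9 rose (GSR, TXNRD1 and NQO1), where 19.8% of all genes rose and 16.4% fell. None of the 9 fell and 0 passed the limit of 1 log2 unit, which 15.9% of all genes passed. The median log2 fold change of the 9 was 0.27, beside 0.04 over all genes. In Ov4Carbo 5 rose (GCLC, GSR, TXNRD1, NQO1 and AKR1C1) and HMOX1 fell, where 17.7% of all genes rose and 16.2% fell, and the median was 0.38, beside 0.03. In that line AKR1C1 alone passed the limit of 1 log2 unit, which 12.7% of all genes did. In Ov4Carbo4 only NQO1 rose, while GCLM and AKR1C1 fell, where 21.6% of all genes rose and 18% fell, and the median was -0.13, beside 0.07. AKR1C1 alone passed the limit of 1 log2 unit there, against 15.1% of all genes. In Ov4Carbo7 the median of the 9 was 1.22, beside 0.02 over all genes. The values of the 9 genes in Ov4Carbo7 and Ovcar4Parental did not overlap for any of them, as for 29.5% of all genes in the upward direction. With a term for the title series 6 of the 9 still passed in Ov4Carbo7, and GCLM, SRXN1 and HMOX1 did not; in Ov4Carbo4 GCLM alone passed. With only the lines compared in the fit, none of the 3 genes named for Ov4Cis passed and NFE2L2 did (0.27, limma adjusted p = 0.0426), while GCLC and AKR1C1 alone passed in Ov4Carbo.

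**Figure D3:**
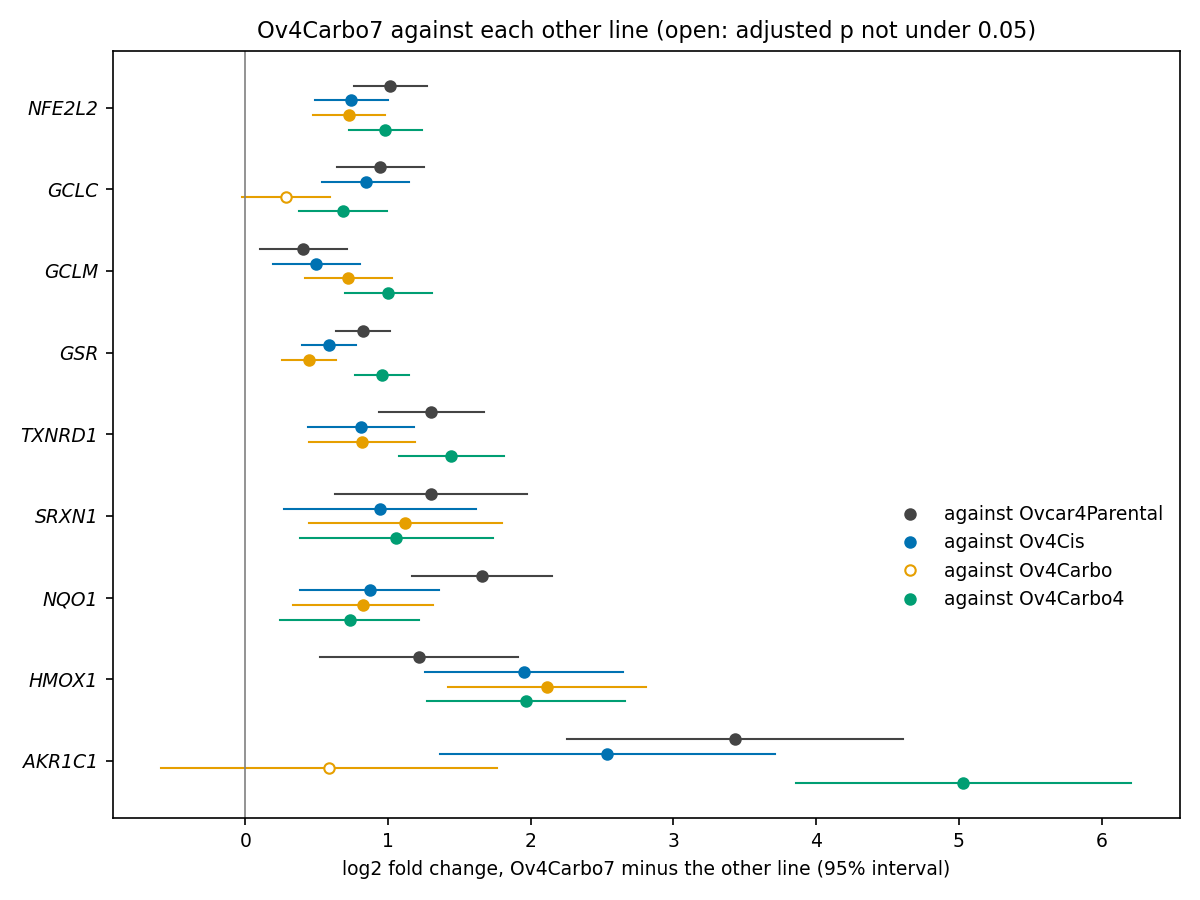
Log2 fold change of Ov4Carbo7 against each of the other 4 lines (horizontal axis) for the 9 genes (vertical axis), with 95% intervals from the limma fit over all 15 samples and open points where the adjusted p is not under 0.05. All points lie above 0, and the open ones are GCLC and AKR1C1 against Ov4Carbo, at 0.28 and 0.59.

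The clones and their source were compared next. They share samples with the comparisons above. Between the clones, Ov4Carbo7 was higher in all 9 genes, by 0.68 (GCLC) to 5.03 (AKR1C1) log2 units, where 24% of all genes were higher and 27.1% lower. For 5 genes, GCLM, TXNRD1, SRXN1, HMOX1 and AKR1C1, the difference was at least 1 log2 unit, against 20.9% of all genes in either direction. The values of the clones did not overlap in any of the 9, as for 31.7% of all genes upward. The median of the 9 was 1.00, beside -0.05 over all genes. SRXN1 lost its call without Ov4Carbo4 replicate 3 or Ov4Carbo7 replicate 2 (0.89 and 0.92, limma adjusted p = 0.0551 and 0.051). Against Ov4Carbo, Ov4Carbo7 was higher in 7 genes and lower in 0, where 18.5% of all genes were higher and 18.2% lower, with a median of 0.73, beside -1.8e-04 over all genes. GCLC and AKR1C1 did not pass. This comparison crosses the title series, and with the series term 3 of the 7 passed (NFE2L2, GSR and HMOX1), while GCLM was at 0.42, TXNRD1 at 0.77, SRXN1 at 0.85 and NQO1 at 0.82 (limma adjusted p = 0.0902, 0.0523, 0.214 and 0.112). SRXN1 and HMOX1 differed by at least 1 log2 unit, as did 13.3% of all genes. The rise of SRXN1 over Ov4Carbo, 1.12 (adjusted p = 0.0137), was 0.73 without Ov4Carbo replicate 2 and was lost without Ov4Carbo7 replicate 2 or 3 (0.98 and 0.99, adjusted p = 0.0561 and 0.057). Ov4Carbo4 against Ov4Carbo had 4 genes lower (GCLC, GSR, TXNRD1 and AKR1C1) and 0 higher, where 19.2% of all genes were lower and 23.1% higher, with a median of -0.28, beside 0.04. AKR1C1 alone passed the limit of 1 log2 unit there, against 14.2% of all genes. Ov4Carbo4 against Ov4Carbo also crosses the title series. With the series term GCLC and TXNRD1 no longer passed (-0.45 and -0.68, limma adjusted p = 0.121 and 0.0621). GCLM then did (-0.58, adjusted p = 0.018), as it did without Ov4Carbo replicate 2 (-0.39, adjusted p = 0.0492).

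Ov4Cis, the cisplatin line, differed from Ov4Carbo in 2 genes: GCLC was 0.56 lower and AKR1C1 1.95 lower (limma adjusted p = 0.009 and 0.0151), where 16.1% of all genes were lower and 18.1% higher. AKR1C1 alone passed the limit of 1 log2 unit, as 13.8% of all genes did. Its call was lost without replicate 3 of Ov4Carbo or of Ov4Cis (-1.79 and -1.85, adjusted p = 0.0516 and 0.0515). NFE2L2, TXNRD1 and NQO1 were close in these lines, with differences of -0.02 (95% interval -0.27 to 0.24), 0.00 (-0.36 to 0.37) and -0.05 (-0.53 to 0.44). Against Ov4Carbo4, Ov4Cis was higher in 4 genes (GCLM, GSR, TXNRD1 and AKR1C1), where 21.7% of all genes were higher and 22.3% lower, and AKR1C1 alone passed the limit of 1 log2 unit, against 16.8% of all genes. Against Ov4Carbo7, it was lower in all 9, with log2 differences from -2.54 to -0.50, where 19.1% of all genes were lower and 20.1% higher. HMOX1 and AKR1C1 passed the limit of 1 log2 unit, against 14.7% of all genes. Both comparisons of Ov4Cis with a clone cross the title series: with the series term GCLM alone passed against Ov4Carbo4, and NFE2L2, GCLC and GSR alone against Ov4Carbo7. SRXN1, at -0.94 (limma adjusted p = 0.029), lost its call without any 1 of the 3 Ov4Cis replicates or replicate 2 or 3 of Ov4Carbo7 (-0.97 to -0.80, adjusted p 0.0613 to 0.103). With the replicate number as a block its adjusted p was 0.0506.

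Within some lines the 9 genes were high or low together in a replicate. In Ov4Carbo replicate 2 all 9 were below their line's mean, in Ov4Carbo4 replicate 3 likewise, and in Ov4Carbo4 replicate 2 all 9 were above. In Ovcar4Parental 8 of 9 were above the line mean in replicate 1 and 1 of 9 in replicate 3. No such pattern was seen in Ov4Carbo7, with 4, 6 and 4 of 9 above the mean in replicates 1, 2 and 3, and in Ov4Cis they were 6, 2 and 5. The same was not counted for other genes. Over the 15 samples the 36 pairs of the 9 genes had Pearson correlations from 0.37 to 0.96, with a median of 0.74. After the line means were removed, the correlations ran from -0.17 to 0.79, with a median of 0.48, and 35 of 36 were above 0. These correlations are a description: the points share libraries and lines, and Ov4Carbo7 lies at the top of every gene.

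Other genes outside the group had patterns as close. Among 11564 genes with a symbol and a mean of at least log2 RPKM 1, the likeness measure being Pearson's r over the 15 samples, the nearest to NFE2L2 were SCAMP4 and RIOK3 (both r = 0.96). For GCLC they were EPS15L1 and GPX4 (both 0.94), for GCLM IL4R (0.96) and LOX (0.95), and for GSR ARHGEF28 (0.99) and TMEM259 (0.97). For TXNRD1 they were PDK1 and NCK1 (both 0.96), for SRXN1 FAM91A3P (0.91) and CLIC4 (0.90), and for NQO1 FAM234B (0.94) and GNPDA1 (0.92). HMOX1 was most like ERO1A and ATP1B1 (both 0.94). AKR1C1 was most like IMPA2 (0.97) and FTH1 (0.96), the heavy chain of ferritin, itself a known NRF2 target. The highest of so many correlations over 15 samples are high by selection.

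The regulators of NRF2 were measured through 16 genes, all in the table. In Ov4Carbo7 5 rose and 3 fell against Ovcar4Parental, with a median of 0.12, where 22.2% of all genes rose and 20.4% fell, so the share that rose is not far from that of all genes. KEAP1, the adaptor that marks NRF2 for breakdown, was 0.41 higher in Ov4Carbo7, which did not pass (limma adjusted p = 0.0857), and its differences in the other 3 lines were -0.42 to -0.13. CUL3, the ligase scaffold, fell in all 4 resistant lines, by 0.96 in Ov4Cis, 0.80 in Ov4Carbo, 0.75 in Ov4Carbo7 and 0.37 in Ov4Carbo4 (adjusted p from 4.55e-06 to 0.00632). MAFG, a small MAF partner, rose in all 4, from 0.62 in Ov4Carbo4 to 0.96 in Ov4Carbo7 (adjusted p 0.00446 and 1.86e-04). SQSTM1, which binds KEAP1 and is itself an NRF2 target, rose by 0.70 in Ov4Cis, 0.66 in Ov4Carbo and 1.23 in Ov4Carbo7 (limma adjusted p = 0.0133, 0.0199 and 2.83e-04). MAFF, another small MAF, fell by 1.57 in Ov4Cis and 1.38 in Ov4Carbo4 (adjusted p = 2.51e-04 and 6.82e-04). BACH1, the repressor of HMOX1, rose in Ov4Carbo, Ov4Carbo4 and Ov4Carbo7, by 0.32, 0.56 and 0.35 (adjusted p = 0.0191, 4.7e-04 and 0.00873). KEAP1, CUL3, MAFG and BACH1 were singled out after their values were seen.

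Of 34 other known NRF2 targets 29 were in the table, a list chosen with earlier results known. In Ov4Carbo7 18 rose and 0 fell against Ovcar4Parental, with a median of 0.70, where 22.2% of all genes rose and 20.4% fell. In Ov4Carbo4 5 rose and 12 fell, with a median of -0.40, where 21.6% of all genes rose and 18% fell. Ov4Cis had 8 up and 3 down (median 0.23), and Ov4Carbo 9 up and 3 down (median 0.19). Between the clones 21 were higher and 3 lower in Ov4Carbo7 (median 1.40), and the shares of all genes in each comparison are those given above. PIR, an iron-binding nuclear protein, rose in all 4 lines, by 1.87 in Ov4Cis, 1.28 in Ov4Carbo, 1.42 in Ov4Carbo7 and 1.00 in Ov4Carbo4 (adjusted p from 2.62e-06 to 4.95e-04). OSGIN1, an oxidative stress induced growth inhibitor, rose by 1.35, 1.76, 2.40 and 0.98 in the same order (adjusted p from 1.33e-07 to 1.4e-04). ABCC2, an exporter of glutathione conjugates linked to cisplatin efflux, rose by 2.94 in Ov4Cis, 0.94 in Ov4Carbo, 2.91 in Ov4Carbo7 and 1.42 in Ov4Carbo4 (adjusted p from 1.07e-05 to 0.0327), from a parental mean of -2.68 log2 RPKM.

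SLC7A11, the cystine importer that supplies cysteine for glutathione, was singled out after its values were seen. Its log2 RPKM was 4.01 ± 0.58 (SD, n = 3) in Ovcar4Parental, 4.90 ± 0.30 in Ov4Cis, 4.87 ± 0.10 in Ov4Carbo, 6.37 ± 0.11 in Ov4Carbo7 and 2.11 ± 0.43 in Ov4Carbo4. It rose by 2.37 in Ov4Carbo7 (limma adjusted p = 2.24e-05) and fell by 1.90 in Ov4Carbo4 (adjusted p = 1.52e-04) against Ovcar4Parental, and the clones differed by 4.27 (adjusted p = 2.05e-07). ME1, which makes NADPH, went the same way, at 1.03 in Ov4Carbo7 and -0.93 in Ov4Carbo4 (adjusted p = 2.87e-04 and 6.9e-04), and so did FTH1, at 0.86 and -0.34 (adjusted p = 1.09e-04 and 0.0414). The ferritin genes sit at the top of the scale, where the 3 Ov4Carbo7 values of FTH1 are identical (10.26 log2 RPKM, SD 0) and equal to those of FTL in Ov4Cis and Ov4Carbo4. Values of the same rank were nearly alike in every sample. Not every target rose in Ov4Carbo7 over Ovcar4Parental. FTL, the ferritin light chain, and the exporter ABCC1 differed from Ovcar4Parental by -0.04 and -0.10 in Ov4Carbo7 (adjusted p = 0.799 and 0.464). For FTL, at the top of the scale, a rise could hardly show. AKR1C3, a relative of AKR1C1, rose by 3.52 in Ov4Cis (adjusted p = 1.27e-06) and was at -0.36 in Ov4Carbo7 (adjusted p = 0.343). Between the clones it was nonetheless 2.37 higher in Ov4Carbo7 than in Ov4Carbo4 (limma adjusted p = 2.68e-05). ME1, FTH1, FTL, ABCC1 and AKR1C3 were also picked after their values were seen.

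**Figure D4:**
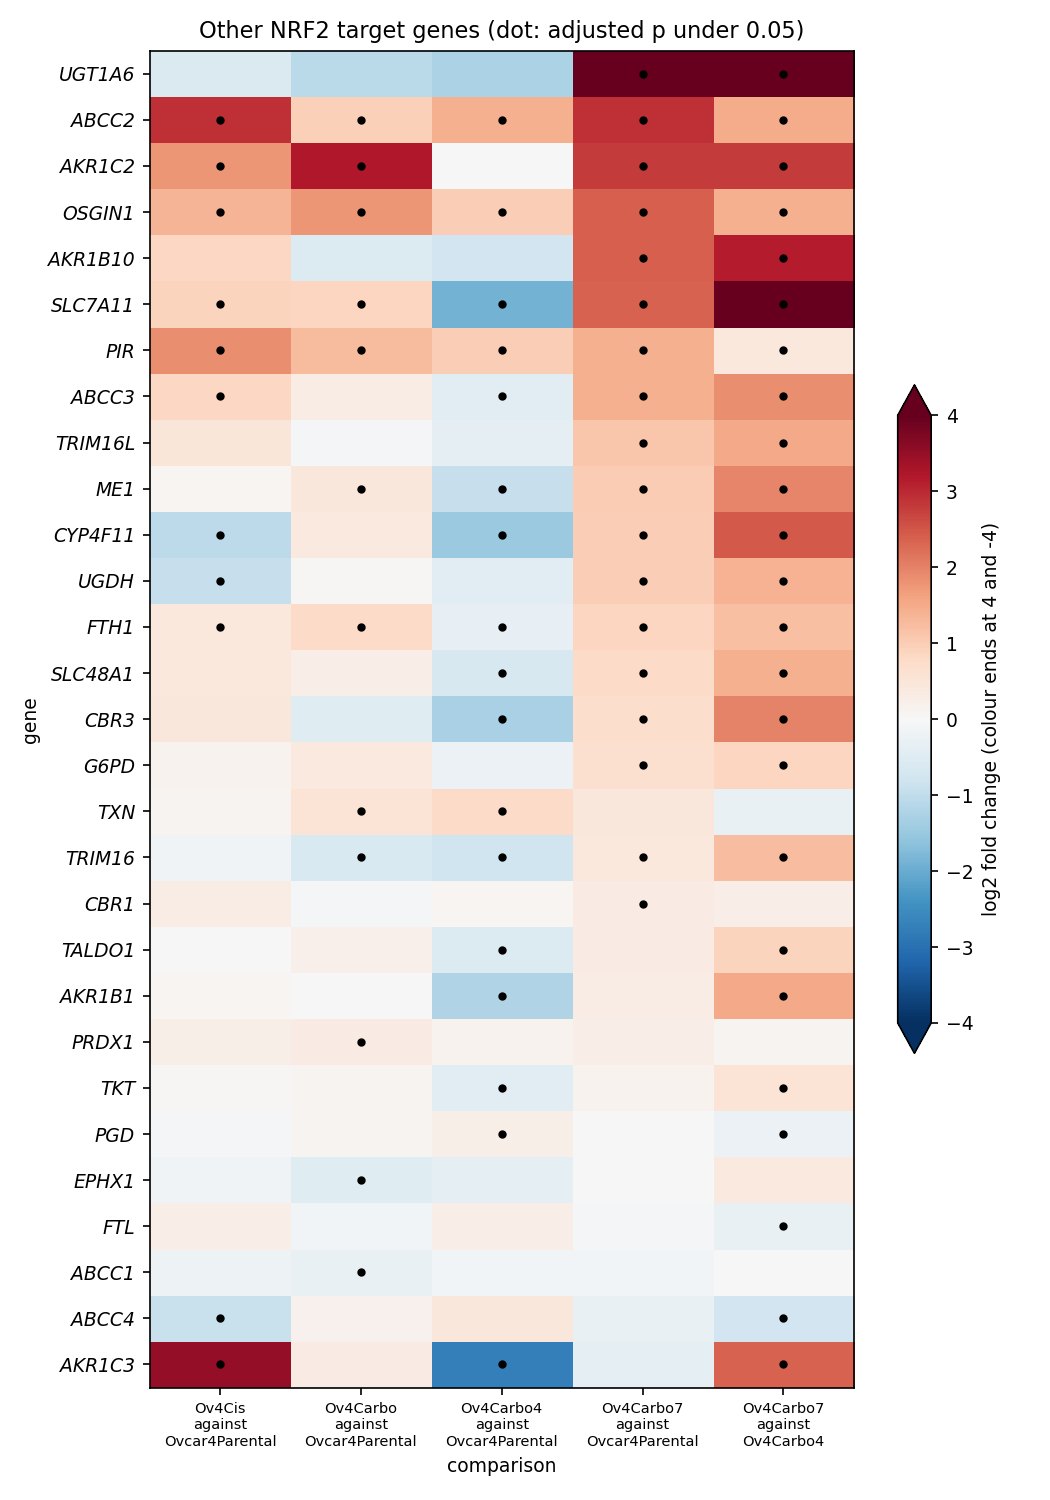
Log2 fold changes (colour, ending at 4 and -4) of 29 other NRF2 target genes (rows, sorted by Ov4Carbo7 against Ovcar4Parental) in 5 comparisons (columns), with a dot where the limma adjusted p is under 0.05. The Ov4Carbo7 column holds 18 dots, all on rises, while in the Ov4Carbo4 column 12 of 17 dots are on falls.

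Of 29 other genes of glutathione metabolism 26 were in the table. In Ov4Carbo7 6 rose and 4 fell against Ovcar4Parental, with a median of -0.0044, which is near the shares of all genes (22.2% and 20.4%). In Ov4Carbo 10 rose and 4 fell, where 17.7% and 16.2% of all genes did. In Ov4Cis 7 rose and 6 fell, where 19.8% and 16.4% of all genes did, and in Ov4Carbo4 1 rose and 5 fell, where 21.6% and 18% did. GSS, which completes glutathione synthesis after glutamate-cysteine ligase, rose by 0.99 in Ov4Carbo (limma adjusted p = 4.9e-05), 0.40 in Ov4Cis and 0.32 in Ov4Carbo7 (adjusted p = 0.0159 and 0.0382). It was named after its values were seen. GLRX, a glutaredoxin, rose in all 4 lines, by 1.76 in Ov4Cis, 1.89 in Ov4Carbo, 1.66 in Ov4Carbo7 and 0.68 in Ov4Carbo4 (adjusted p from 3.52e-05 to 0.0221). GPX7, a glutathione peroxidase of the endoplasmic reticulum, fell in Ov4Cis (log2 fold change -4.64), Ov4Carbo (-2.84) and Ov4Carbo7 (-6.33, with adjusted p from 1.33e-07 to 1.1e-04), from a parental mean of 0.65 log2 RPKM, and was at -0.92 in Ov4Carbo4 (adjusted p = 0.0627). GGT5, a gamma-glutamyltransferase, was low in every line, at -0.77 log2 RPKM in Ovcar4Parental, and fell in all 4, with log2 fold changes from -6.88 to -1.41.

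Among neighbouring redox systems, of 20 thioredoxin and peroxiredoxin genes 5 rose and 1 fell in Ov4Carbo7, 5 and 1 in Ov4Cis, 4 and 2 in Ov4Carbo, and 2 and 3 in Ov4Carbo4. Over all genes 22.2%, 19.8%, 17.7% and 21.6% rose in these lines and 20.4%, 16.4%, 16.2% and 18% fell, so the shares that rose in the first 3 are near those of all genes. SESN3, a sestrin, rose in all 4 by 3.04 to 4.47 (adjusted p from 2.89e-07 to 4.45e-06). TXNIP, the inhibitor of thioredoxin, fell by 2.00 in Ov4Carbo4 (adjusted p = 0.002) and was 0.96 higher in Ov4Carbo7 (adjusted p = 0.077). Of 14 heme and iron genes 5 rose and 0 fell in Ov4Carbo7, 5 and 0 in Ov4Cis, 3 and 0 in Ov4Carbo, and 3 and 4 in Ov4Carbo4, to be read against the same shares. SLC40A1, the iron exporter ferroportin, rose by 2.42 in Ov4Cis, 0.83 in Ov4Carbo4 and 2.40 in Ov4Carbo7 (adjusted p = 1.47e-05, 0.0249 and 1.57e-05). BLVRB, a biliverdin and flavin reductase, rose by 1.04 in Ov4Cis, 0.60 in Ov4Carbo and 0.81 in Ov4Carbo7 (adjusted p = 0.00134, 0.0372 and 0.00606). Of 7 oxidant-removing enzymes in the table, from a list of 8, 2 rose and 0 fell in Ov4Carbo7, 3 and 0 in Ov4Cis, 1 and 1 in Ov4Carbo, and 1 and 2 in Ov4Carbo4, too few to set against those shares. Catalase, CAT, named after its values were seen, rose by 1.00 in Ov4Carbo7 (limma adjusted p = 2.26e-04).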

How the data were processed

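Total RNA from 15 cultures of 5 lines was made into polyA libraries, per the labels' protocols. The deposited values are log2 RPKM, which the authors normalized by cqn (conditional quantile normalization) and filtered by a threshold, both going by the table's name, without a stated rule for the latter. The submitters' processing notes name BWA 0.7.15-r1140, HTSeq, hg19 and GRCh37, without their roles. Gene symbols were looked up by Ensembl identifier, which matched 16448 of 16604 genes, and chromosomes from GENCODE v29. Promoter windows are from RefSeq GRCh38.p14, and none of their coordinates were joined to the values. Without counts, neither depth nor counting error can be stated.

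With limma 3.58.1 (R 4.3.3), all genes and samples entered 1 linear model with a coefficient per line, tested with eBayes (two-sided) for 10 pairs of lines, with Benjamini-Hochberg adjustment over all genes within each pair. Genes passed at an adjusted p under 0.05, and a stricter count also asked for at least 1 log2 unit. The fit was tested on simulated data. The p-values rest on the spread between replicates within lines, with 1 estimate per gene shared by all 5 lines. They do not measure the spread of only the lines compared, and the less alike Ov4Carbo replicates enter every pair. For NFE2L2 the SD was 0.29 in Ov4Carbo and 0.0056 in Ov4Carbo7. The replicates of a clone are of 1 clone. Python 3.11.15, pandas 2.3.3 and matplotlib 3.10.9 made the tables and figures.

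The members and lists were chosen with earlier results of these data known. All 9 members are named. From each other list the rule named genes past both limits against Ovcar4Parental in 1 direction in at least 3 of the 4 resistant lines. Where fewer than 2 existed, it took the 2 largest changes with a mean of at least log2 RPKM 1 in the higher line. That limit was read as belonging to the latter case only. Some genes are in 2 lists (SLC7A11, TXN, PRDX1, FTH1 and FTL). The alternatives tried were a filter on mean log2 RPKM of 1 (12037 genes kept), log2(RPKM + 1), only the lines compared, a replicate block, a title series term, an adjusted p under 0.01, leaving out each replicate, and a variance trend, centring or quantile normalization. The main fit did not pair samples by replicate number, and the replicate block used the number for all lines. In Ov4Cis and Ov4Carbo7 the 3 same-numbered pairs deviated from the line means together (r = 0.33, 0.27 and 0.32). These 2 lines were singled out from the data and not the labels. Summing AKR1C1 and AKR1C2 was added after seeing the data.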

Additional observations from a re-analysis of the deposited data

Results flagged for a closer look

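GSR and TXNRD1 drew attention because the clones lay on opposite sides of Ov4Carbo, the population both came from, each past the threshold. GSR was 0.96 log2 units higher in Ov4Carbo7 than in Ov4Carbo4 (limma adjusted p = 2.93e-06), and TXNRD1 was 1.44 higher (limma adjusted p = 2.17e-05). With a term for the title series, both differences of TXNRD1 from Ov4Carbo no longer passed (-0.68 and 0.77, limma adjusted p = 0.0621 and 0.0523), while those of GSR did (-0.49 and 0.47, adjusted p = 0.0123 and 0.0228). The tests of each clone against Ov4Carbo share the Ov4Carbo samples, and each clone is a single isolate.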

How the results depend on the processing

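Counts of the 9 genes are given first at an adjusted p under 0.05, and as strict counts where at least 1 log2 unit was asked for as well. With a variance trend, quantile normalization or centring, both counts were as reported in all 10 comparisons. The samples already had near equal medians (2.768 to 2.770), and upper values of the same rank were nearly alike. Centring and quantile normalization could therefore change little, and the unchanged counts are no check on normalization. The counts below are those that moved by more than 1.5 times, and smaller moves are left out unless named; the cause was not tested except where fewer genes or samples entered.

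With genes kept at a mean of at least log2 RPKM 1, SRXN1 and AKR1C1 left the test, so at most 7 could pass, and 7 did for Ov4Carbo7 against Ovcar4Parental, Ov4Carbo4 and Ov4Cis. Strict counts then were 0 for Ov4Carbo and for Ov4Carbo4 against Ovcar4Parental, 0 for Ov4Carbo4 against Ov4Carbo, 1 for Ov4Carbo7 against Ov4Carbo, 3 for Ov4Carbo7 against Ov4Carbo4, and 0, 0 and 1 for Ov4Cis against Ov4Carbo, Ov4Carbo4 and Ov4Carbo7. The count without the size limit for Ov4Cis against Ov4Carbo was 1. On the log2(RPKM + 1) scale the strict counts were the same in those comparisons, and 3 for Ov4Carbo7 against Ovcar4Parental. Over all genes, strict counts ran from 2106 to 3478 in the 10 comparisons, from 730 to 1645 with the filter and from 790 to 1746 on the log2(RPKM + 1) scale.

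With only the lines compared in the fit, the counts were 1 for Ov4Cis and 2 for Ov4Carbo against Ovcar4Parental and 1 for Ov4Cis against Ov4Carbo, and the strict counts 0 for Ov4Carbo4 against Ovcar4Parental and 1 for Ov4Carbo7 against Ov4Carbo. At an adjusted p under 0.01 the counts were 0 for Ov4Cis and 3 for Ov4Carbo against Ovcar4Parental, 2 for Ov4Carbo4 and 1 for Ov4Cis against Ov4Carbo, and the strict counts 0, 1 and 0 for Ov4Carbo4 against Ovcar4Parental and for Ov4Carbo7 and Ov4Cis against Ov4Carbo.

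With a term for the title series, estimated from Ov4Carbo alone, counts were 1 for Ov4Carbo4 against Ovcar4Parental, 3 for Ov4Carbo7 against Ov4Carbo, and 1 and 3 for Ov4Cis against Ov4Carbo4 and Ov4Carbo7. Strict counts were 2 for Ov4Carbo and 3 for Ov4Carbo7 against Ovcar4Parental, 1 for Ov4Carbo7 against Ov4Carbo, and 0 and 0 for Ov4Cis against Ov4Carbo4 and Ov4Carbo7. GCLM in Ov4Carbo7 against Ovcar4Parental turned to -0.047. The term rests on 1 sample, Ov4Carbo replicate 1, set against replicates 2 and 3 of its line. The median of the 9 for Ov4Cis against Ov4Carbo, -0.016, turned to 0.020 with this term. It ran from -0.16 to 0.057 when each replicate was left out. It was above 0 without Ov4Carbo replicate 1 (0.020), Ov4Cis replicate 2 (0.021) or Ov4Carbo replicate 3 (0.057). For these lines the series term and leaving out Ov4Carbo replicate 1 are the same fit, so the 0.020 is 1 result.

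Leaving out each replicate in turn, the counts ran from 1 to 4 for Ov4Cis, 4 to 6 for Ov4Carbo, 2 to 3 for Ov4Carbo4 and 8 to 9 for Ov4Carbo7 against Ovcar4Parental. They ran from 3 to 6 for Ov4Carbo4 and 6 to 7 for Ov4Carbo7 against Ov4Carbo, 7 to 9 between the clones, and 1 to 3, 4 to 4 and 7 to 9 for Ov4Cis against Ov4Carbo, Ov4Carbo4 and Ov4Carbo7. Strict counts ran, in the same order, from 0 to 2, 1 to 2, 0 to 1 and 5 to 7, then 1 to 1, 1 to 2 and 3 to 6, then 0 to 1, 1 to 1 and 2 to 3. The F-test passed 8 to 9 genes.

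Replicate numbers are shared between lines, so a fit with the replicate number as a block was run. Over 30 same-numbered pairs the correlation of deviations ran from -0.50 to 0.54, and 12 were over 0.1. All 3 pairs were over 0.1 for Ov4Cis with Ov4Carbo7 and for no other lines, and 3 of 15 samples correlated best with their own number. Under the replicate block the count was 1 for Ov4Cis against Ovcar4Parental (GSR and TXNRD1 lost, adjusted p = 0.0667 and 0.0532), 5 for Ov4Carbo against Ovcar4Parental (TXNRD1 lost, 0.059) and 8 for Ov4Cis against Ov4Carbo7 (SRXN1 lost, 0.0506). The other counts and the strict counts did not change.

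The precision is set by 3 replicates a line. AKR1C1, AKR1C2 and SRXN1 lie where few reads are expected, and the deposited values do not give their number.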
